A study of Mus musculus with 32 samples.

Results

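Intestinal stem cells labelled as null for Ppara, the gene of the nuclear receptor PPARα, were compared with stem cells labelled as carrying floxed alleles of Ppard, both from mice on a high-fat diet. The members were the 8 libraries, of 32 in the series, whose group was PparA (genotype Ppara-null, 4 libraries, numbered 6, 14, 22 and 30) or PparD (genotype Ppard-fl/fl, 4 libraries, numbered 4, 12, 20 and 28) with a high-fat diet. All were C57BL6 mice, and the same pair of genotypes on the control diet (PparA libraries 5, 13, 21 and 29, PparD libraries 3, 11, 19 and 27) was set beside them. The other groups are WT and PparDA (genotype Ppard-fl/fl with Ppara-null), on either diet. Cells with high GFP were sorted from crypts with an epithelial surface stain and a viability dye, and polyadenylated RNA was counted near its 3' end by digital gene expression. The Cre driver, the recombination of the floxed Ppard alleles, the origin of the Ppara-null allele and the length of the diet are details that neither the labels nor the files state. Separate animals are likewise not named for the 4 libraries of a group, and the p-values therefore describe variation among libraries that may be technical.

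PPARα and PPARδ are nuclear receptors that bind fatty acids, pair with RXR and switch on genes for fatty acid transport and burning. In the intestine PPARα is best known in differentiated enterocytes, which absorb fat, and PPARδ is expressed along the crypt, including its stem cells. Both recognise much the same DNA element and share many target genes.

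The library numbers fall into 4 runs of 8 that hold every group once, and the comparison was made within runs. PparD held place 4 and PparA place 6 in every run, so place and group cannot be told apart. Totals were 636955 to 704387 counts in the 8 libraries, with 11784 to 12192 genes detected. Runs 1 and 3 held Xist, the female-specific transcript, at 600.2 to 941 CPM (counts scaled to a common library size) and no Y-linked Ddx3y, whereas runs 2 and 4 held Ddx3y at 23.3 to 39.9 CPM and Xist at 9.98 CPM at most. The epithelial marker Epcam stood at 112 to 241 CPM, and the stem cell markers Lgr5, Olfm4, Ascl2 and Smoc2 were present in all 8 libraries. Markers of other epithelial cells were present as well. Lyz1 of Paneth cells had 239 to 2184 counts in PparA and 272 to 672 in PparD. Muc2 of goblet cells had 12 to 37 and 8 to 17, and Alpi of enterocytes 1 to 99 and 2 to 9. Chga of enteroendocrine cells had 4 counts at most and Dclk1 of tuft cells 7. Col1a1 of fibroblasts and Hba-a1 of red blood cells were at 0 counts, and the leukocyte marker Ptprc had 3 counts at most. Neither targeted gene could check its label. Ppara (chromosome 15, 85734983 to 85802819, mm10) had 1, 1, 2 and 3 counts in PparA and 2, 1, 4 and 2 in PparD, in order of run, and Ppard (chromosome 17, 28232700 to 28301474) had 2, 7, 4 and 0 in PparA and 5, 4, 2 and 1 in PparD. Both were too low to be tested, and 3' reads that lie outside the altered exons could not report on them.

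Promoters are shown for 3 genes of fatty acid and retinoid metabolism that were lower in PparA, since elements bound by PPARs are often found near gene starts. Slc25a20 and Retsat are called members of the PPAR target list, and Slc25a20 and Acadvl of the mitochondrial oxidation list. The promoter of Angptl4, the other called target, is not shown. The sequences give the 250 bases before the start of Slc25a20 (chr9:108661886-108662135, plus strand), Acadvl (chr11:70015429-70015678, minus strand) and Retsat (chr6:72598352-72598601, plus strand) from RefSeq on GRCm38.p6, and capitals mark the motif AGGTCA on either strand.
Slc25a20: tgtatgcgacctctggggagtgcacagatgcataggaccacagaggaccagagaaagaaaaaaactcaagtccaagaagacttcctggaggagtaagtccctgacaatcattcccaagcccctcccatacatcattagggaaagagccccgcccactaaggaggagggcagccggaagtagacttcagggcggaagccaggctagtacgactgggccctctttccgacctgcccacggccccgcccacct
Acadvl: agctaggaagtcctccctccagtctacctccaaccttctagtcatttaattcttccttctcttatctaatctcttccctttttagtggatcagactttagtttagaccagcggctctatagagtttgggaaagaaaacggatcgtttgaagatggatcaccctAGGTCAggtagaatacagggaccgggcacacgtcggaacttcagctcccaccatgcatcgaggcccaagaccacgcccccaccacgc
Retsat: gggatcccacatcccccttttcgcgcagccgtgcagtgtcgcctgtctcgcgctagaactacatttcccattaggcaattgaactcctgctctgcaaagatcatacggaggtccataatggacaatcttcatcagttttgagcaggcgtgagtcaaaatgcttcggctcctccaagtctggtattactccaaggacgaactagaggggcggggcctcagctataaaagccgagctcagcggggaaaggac
Acadvl held 1 copy of AGGTCA, 87 bases before the start, and the other promoters held none, while 14.02% of 32851 promoters of that length held at least 1. None of the 3 held a direct repeat of AGGTCA with 1 base between the copies, even with up to 2 mismatches, a pattern found in 3.24% of all promoters. These matches describe letters in a short window and say nothing of binding.

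On the high-fat diet the groups differed mainly in 4 ways. PparA had lower levels of a small set of PPAR targets for fatty acid use, of many ribosomal protein genes and of some nuclear genes of the respiratory chain, and higher levels of several transcripts of the mitochondrial genome. The PPAR target calls rested on few libraries, and no target passed the threshold without library 6, 28 or 30. Some genes on chromosome 15 near Ppara differed on both diets. Enterocyte and lipoprotein genes were high in PparA in runs 2 and 4. Of 5872 tested genes, 201 passed an adjusted p of 0.05 (3.42%; edgeR quasi-likelihood test), which is what called means below. Of these, 87 were higher in PparA (1.48%) and 114 lower (1.94%), and 990 had an unadjusted p under 0.05. Log2 fold changes are PparA over PparD throughout, with a median of 0.01 over all tested genes, and CPM values are in order of run.

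In 151 called genes the 4 PparA libraries did not overlap the 4 PparD libraries, 51 higher and 100 lower, whereas 525 of all tested genes (8.94%) did not overlap, 214 higher (3.64%) and 311 lower (5.3%). The direction was the same in all 4 runs for 177 of the called genes, and 93 differed by more than 1 on the log2 scale. On the control diet 58 genes were called (0.988%), 30 of them higher (0.511%), and 34 genes were called on both diets, which is 16.92% of the high-fat and 58.62% of the control calls. Of these 34, 29 kept their direction. Runs 1 and 3 alone gave 65 calls, 54 of them shared with the full comparison, and runs 2 and 4 alone gave 194, with 80 shared. Leaving out library 4, 12, 14 or 30 lowered the count to 89, 132, 97 or 80.

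**Figure D1:**
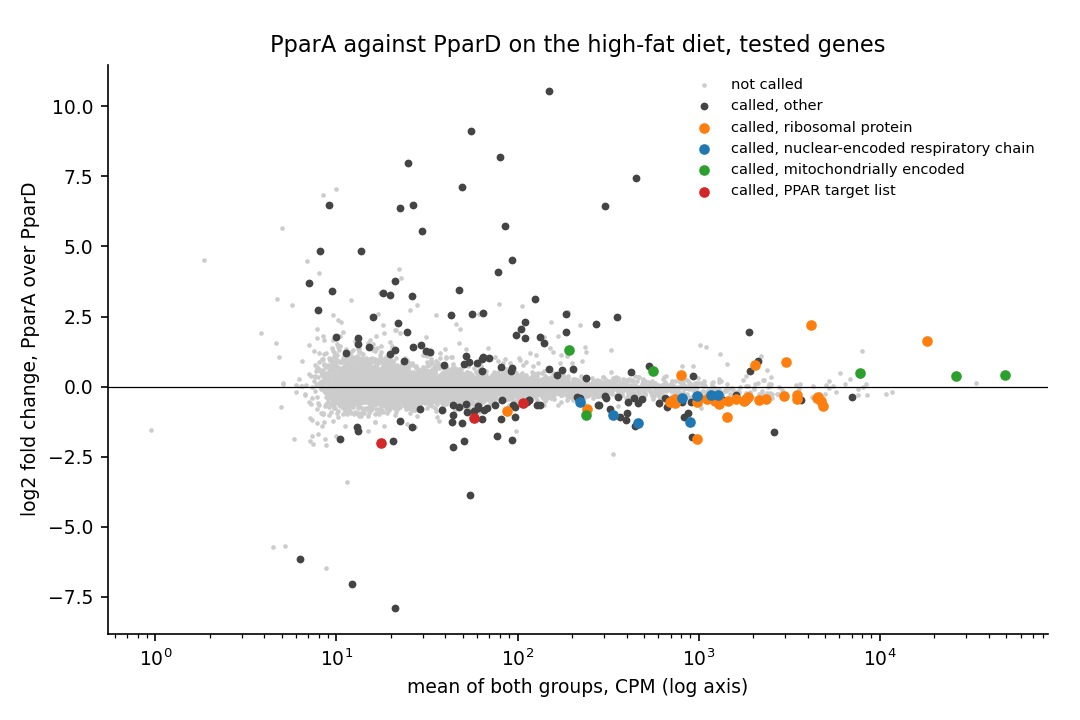
Log2 fold change of PparA over PparD on the high-fat diet against the mean level of each tested gene in CPM (log axis). Grey points were not called, and coloured points are called genes of 4 lists: 28 of 33 called ribosomal protein genes and all 8 called respiratory chain genes lie below 0, and 5 of 6 called mitochondrially encoded transcripts lie above it.

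A few PPAR targets were lower in PparA than in PparD, and most did not differ past the threshold. Of 14 tested canonical PPAR targets 3 were called, all lower in PparA (21.4%), and of 19 tested genes of mitochondrial fatty acid oxidation 2 were called, both lower (10.5%), against 3.42% of all tested genes called and 1.94% called lower. Slc25a20 is a member of both lists and is counted in each, so these calls are not separate. The median log2 fold change was -0.11 for the targets and -0.24 for the oxidation genes, against 0.01 for all tested genes. Without library 6 these medians were -0.03 and -0.11, and that of the targets was -0.07 without library 4 and between -0.26 and -0.16 without library 14, 20, 22 or 28. In runs 1 and 3 alone the medians of the targets and of the oxidation genes were -0.43 and -0.13, and in runs 2 and 4 alone they were -0.01 and -0.17. No target was called without library 6, 28 or 30. No gene of peroxisomal fatty acid oxidation (12 tested), ketone body metabolism (6), fatty acid synthesis (8) or cholesterol synthesis (16) was called.

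Angptl4, a secreted inhibitor of lipoprotein lipase, stood at 1.49, 6.65, 16.5 and 3.33 CPM in PparA and at 35.6, 23.9, 23.2 and 30.8 CPM in PparD. Every PparD library was above every PparA library. The log2 fold change was -2.01 ± 0.52 (SE; edgeR adjusted p = 0.027). In WT the level was 7.38 ± 3.17 CPM (SD, n = 4), close to that of PparA, and PparDA was at 14.1 ± 4.93 CPM.

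Slc25a20, the carrier that brings acylcarnitines into mitochondria, was at 20.9, 39.9, 56.1 and 28.3 CPM in PparA and at 80.0, 74.6, 78.3 and 82.2 CPM in PparD. The groups did not overlap, and PparD varied little. Its log2 fold change was -1.13 ± 0.26 (adjusted p = 0.013), and on the control diet it was -1.36 ± 0.30 (adjusted p = 0.017). WT on the high-fat diet was at 40.6 ± 11.5 CPM and PparDA at 36.1 ± 4.57 CPM, so PparD stood above the other 3 genotypes.

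Acadvl, which starts the oxidation of very long acyl chains, was at 71.7, 91.5, 124 and 108 CPM in PparA and at 154, 121, 162 and 192 CPM in PparD, with the highest PparA library just above the lowest PparD library. The log2 fold change was -0.67 ± 0.15 (adjusted p = 0.0099). Here WT, at 145 ± 31.8 CPM, was near PparD, and PparDA was lowest at 62.5 ± 6.04 CPM. Retsat, a retinol saturase that PPARs induce in fat cells, was at 70.2, 93.1, 85.8 and 96.4 CPM in PparA and at 127, 118, 115 and 149.7 CPM in PparD, without overlap. Its log2 fold change was -0.57 ± 0.16 (adjusted p = 0.046).

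Cpt1a, the gate for fatty acids into mitochondria, had a log2 fold change of -0.37 ± 0.32, Acaa2, a thiolase, of -0.28 ± 0.15, Hadha, of the trifunctional protein, of -0.10 ± 0.16 and Plin2, a lipid droplet coat, of -0.07 ± 0.15, none of them called (adjusted p = 0.63, 0.37, 0.85 and 0.88). Pdk4, which spares glucose when fat is burned, had 0, 1, 3 and 1 counts in PparA and 7, 2, 3 and 1 in PparD and was too low to test.

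The calls of this group rested on few libraries. Angptl4 was lost without library 4, 6, 14, 28 or 30 (adjusted p = 0.082 to 0.129), Slc25a20 without 6, 28 or 30 (0.0542 to 0.0701), Acadvl without 6 or 30 (0.053 to 0.0562) and Retsat without 4, 6, 14, 22, 28 or 30 (0.0904 to 0.185). Within runs 1 and 3 the log2 fold changes of Angptl4, Slc25a20, Acadvl and Retsat were -1.72, -1.06, -0.70 and -0.64, and within runs 2 and 4 they were -2.42, -1.22, -0.64 and -0.51.

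**Figure D2:**
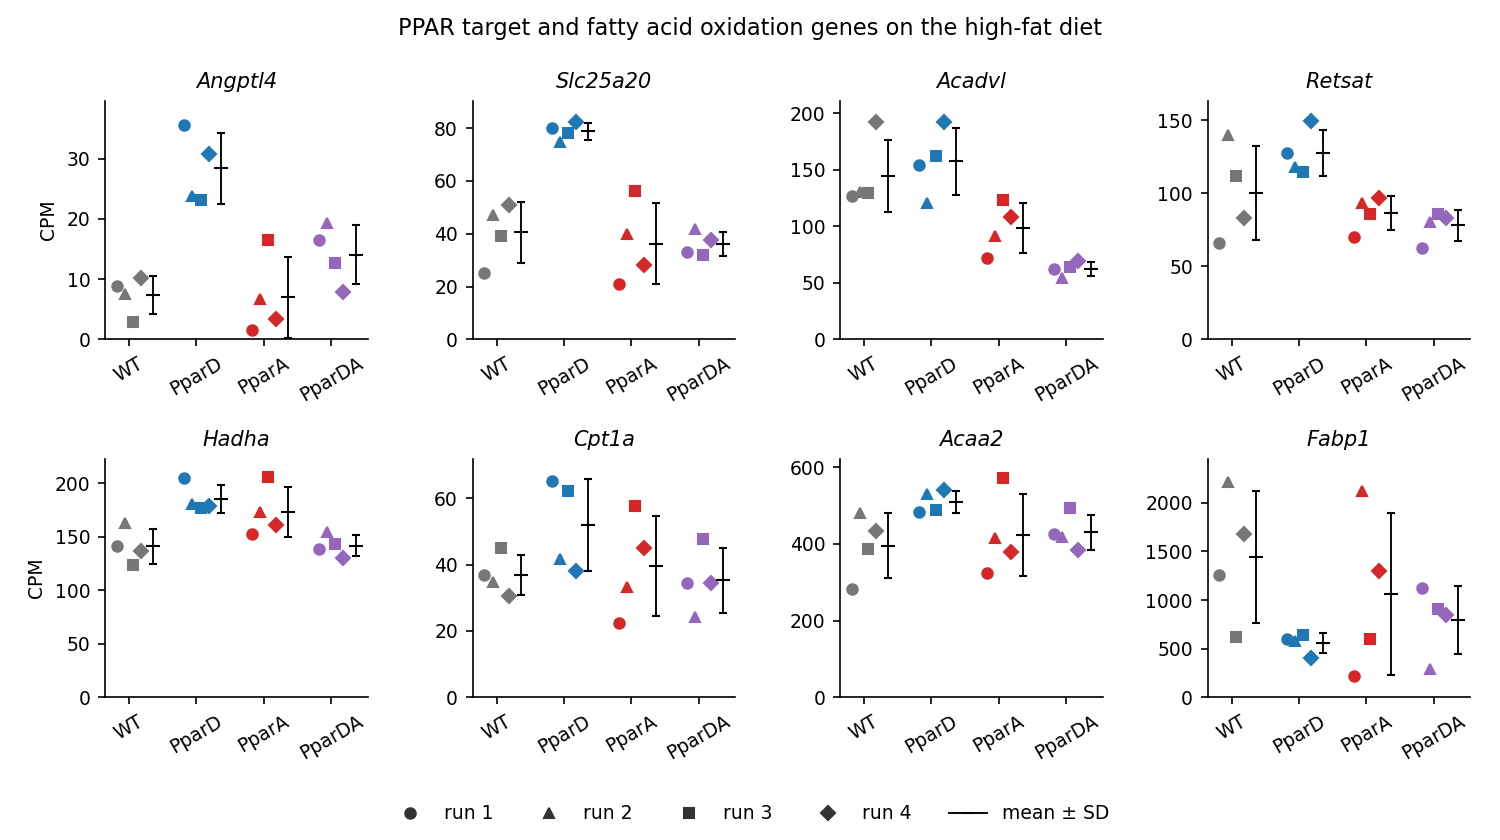
CPM of 8 PPAR target and fatty acid oxidation genes in each high-fat library, with the marker shape giving the run and black bars the mean ± SD of 4 libraries. For Angptl4, Slc25a20 and Retsat every PparD library lies above every PparA library, whereas Cpt1a, Acaa2, Hadha and Fabp1 overlap.

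Several genes close to Ppara on chromosome 15 differed between the genotypes, 4 of them in the same direction on both diets. Within 10 Mb of Ppara 7 of 86 tested genes were called (8.14%), 1 higher and 6 lower, and on the rest of the chromosome 8 of 132 (6.06%), against 3.42% of all tested genes. The 7 include a pseudogene with counts in a single library. Within 10 Mb of Ppard on chromosome 17, 3 of 143 were called (2.10%), namely Angptl4 and the ribosomal protein genes Rps10 and Rps2, all lower in PparA.

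Cyb5r3 (83153494 to 83172592, 2.56 Mb from Ppara), a reductase that returns electrons to cytochrome b5 in lipid desaturation, was at 245, 276, 305 and 344 CPM in PparA and at 81.5, 68.6, 91.4 and 64.6 CPM in PparD. The lowest PparA library was far above the highest PparD library, with a log2 fold change of 1.93 ± 0.14 (adjusted p = 1.7e-10). On the control diet it was 1.83 ± 0.14. PparDA, which carries the same Ppara genotype, was at 299.8 ± 54.7 CPM on the high-fat diet and WT at 81.4 ± 3.75 CPM.

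Apobec3 (79891659 to 79915906), a cytidine deaminase that restricts retroviruses, was at 50.8, 31.6, 37.9 and 18.3 CPM in PparA and at 117, 121, 102 and 138 CPM in PparD, without overlap. The log2 fold change was -1.78 ± 0.27 (adjusted p = 0.00017) and on the control diet -2.01 ± 0.26. PparDA was at 36.0 ± 11.3 and WT at 145 ± 31.1 CPM, again split by the Ppara genotype. Tomm22, the receptor of the mitochondrial import channel, differed by -0.82 ± 0.15 (adjusted p = 0.0016; control diet -0.91) and Serhl, a serine hydrolase-like gene, by -1.25 ± 0.28 (adjusted p = 0.0095; control diet -1.26). Both had no overlap, and Serhl was lost without library 12 (adjusted p = 0.0614).

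Lgals2, a galectin of the gut epithelium, was at 6814, 6131, 5897 and 5886 CPM in PparA and at 7065, 7523, 8949 and 8333 CPM in PparD, a log2 fold change of -0.36 ± 0.09 (adjusted p = 0.022) that was lost without library 14, 20, 22, 28 or 30 (0.0708 to 0.133). Rpl8, of the large ribosomal subunit, differed by -0.45 ± 0.13 (adjusted p = 0.049) and was lost without any library but 22 (0.0608 to 0.209). Rpl31-ps8, a pseudogene, had counts in 1 of the 8 libraries, library 4, at 169 CPM, and its call was lost without library 4 or 6 (adjusted p = 1).

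The genes of protein synthesis were the group with most calls. Of 79 cytosolic ribosomal protein genes 33 were called (41.8%, against 3.42% of all tested genes), 28 lower in PparA and 5 higher, and the list's median log2 fold change was -0.36. PparA lay below PparD without overlap for 49 of the 79, against 5.3% of all tested genes. On the control diet 1 was called higher and 5 lower, with a median of -0.09. Of all tested genes 0.511% were called higher and 0.477% lower on that diet. The summed level of the list was 189061, 190648, 212945 and 187733 CPM in PparA and 207461, 216479, 182506 and 201841 CPM in PparD, and these ranges overlapped. That sum includes the abundant genes Rps4x and Rpl28, described below, which were higher in PparA. Rpl28 alone had means of 6910 CPM in PparA and 1465 CPM in PparD. The overlap therefore does not describe the other members.

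Rplp0, a stalk protein of the ribosome often used as a reference gene, was at 3758, 3032, 4243 and 3678 CPM in PparA and at 6018, 6502, 5538 and 5991 CPM in PparD. All PparD libraries were higher, with a log2 fold change of -0.70 ± 0.13 (adjusted p = 0.0012). Rps25, of the small subunit, differed by -0.61 ± 0.12 (adjusted p = 0.0019), Rps10 by -0.79 ± 0.14 (adjusted p = 0.00095) and Rps13 by -1.87 ± 0.35 (adjusted p = 0.0016), each without overlap. The translation elongation factor Eef1a1 and the prolyl isomerase Ppia were also called, by -0.43 ± 0.12 and -0.49 ± 0.11 (adjusted p = 0.042 and 0.012), named here after their values were seen. The number of lower ribosomal protein genes was 8 to 30 when 1 library was left out, with 8 without library 14 or 30, 9 without 4 and 15 without 12 or 28, while the median stayed between -0.38 and -0.30. It was 3 in runs 1 and 3 alone and 8 in runs 2 and 4 alone, with medians of -0.23 and -0.45.

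Some of these genes share sequence with pseudogenes that moved the other way, so reads may be split differently between copies. The sum of Rps13 and Rps13-ps1 was 1027 ± 155 CPM in PparA and 1534 ± 213 CPM in PparD, where Rps13 alone stood at 438 and 1511 CPM. The sum of Rps15a and Rps15a-ps8 was 1009 ± 133 and 1961 ± 236 CPM. Each sum was lower in PparA on average, as was Rpl30 with Rpl30-ps9 at 667 ± 64.7 and 851 ± 96.3 CPM. Among all tested pseudogenes 23 of 104 were called (22.1%), 17 of them higher in PparA, against 167 of 5572 protein-coding genes (2.997%). The pseudogenes and copies in this paragraph were named after their values were seen.

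Several pseudogenes were all but absent from PparD. Rpl3-ps1 (chromosome X, 13202571 to 13203780) was at 361, 96.5, 109 and 74.8 CPM in PparA and at 0, 1.49, 0 and 0 CPM in PparD. That is 411 counts against 1, a ratio of 450.4 with a 95% counting interval of 80.4 to 17831. It was also present in all 4 PparDA libraries, at 25.2 to 149.7 CPM, and near 0 in WT. The parent gene Rpl3 did not differ past the threshold (log2 fold change 0.21, adjusted p = 0.13). Gm6278, a processed pseudogene named after its values were seen, had 605 to 1489 CPM in PparA and 0 to 10.3 CPM in PparD, and on the control diet 3 of 4 PparA libraries had 1436 to 1617 CPM while library 13 was at 4.76 CPM.

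Called genes of the respiratory chain were lower in PparA for the nuclear genome and mostly higher for the mitochondrial genome. Of all tested members, 37 of 47 nuclear genes and 4 of 15 mitochondrial transcripts had a negative value. Of 47 nuclear genes of the respiratory chain and ATP synthase 8 were called, all lower in PparA (17.02%, against 1.94% of all tested genes called lower), with a median of -0.16. Of 15 mitochondrially encoded transcripts 5 were called higher and 1 lower (40%, against 3.42% of all tested genes), with a median of 0.23. On the control diet no nuclear gene of the list and 1 mitochondrial transcript, a higher one, were called, against 0.988% of all tested genes.

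Cox6a1, a subunit of cytochrome c oxidase, was at 254, 248, 205 and 185 CPM in PparA and at 437, 512, 421 and 439 CPM in PparD, without overlap (log2 fold change -1.02 ± 0.16, adjusted p = 0.00016). Cox8a, another subunit of that enzyme, was at 589.7, 629, 483 and 379 CPM in PparA and at 1275, 1699, 1075 and 1046 CPM in PparD, without overlap (-1.27 ± 0.23, adjusted p = 0.0012). Ndufb8 of complex I differed by -0.54 ± 0.12 (adjusted p = 0.0072). The call count of the nuclear list was 3 to 9 when 1 library was left out, with 3 without library 4 or 30 and 4 without 14 or 28, and no member was called higher.

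The transcript mt-Atp8, a small subunit of ATP synthase, was at 440.4, 244, 191 and 226 CPM in PparA and at 133, 104, 75.4 and 114 CPM in PparD. All PparA libraries were higher (log2 fold change 1.32 ± 0.15, adjusted p = 1.0e-06). The oxidase subunit mt-Co1 differed by 0.54 ± 0.13 (adjusted p = 0.014), lost without library 4, 20 or 30 (0.0626 to 0.0967), and mt-Nd3 of complex I by -1.01 ± 0.19 (adjusted p = 0.0015). The whole mitochondrial share of counts was 14.9 to 16.3% in PparA and 12.5 to 14.4% in PparD, a measure that also follows cell quality, and its part in these differences was not tested. Without 1 library, 1 to 5 mitochondrial transcripts were called higher. In runs 1 and 3 alone the median of the mitochondrial list was 0.32, with 4 called higher. In runs 2 and 4 alone it was 0.06, with 1 called higher and 1 lower.

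**Figure D3:**
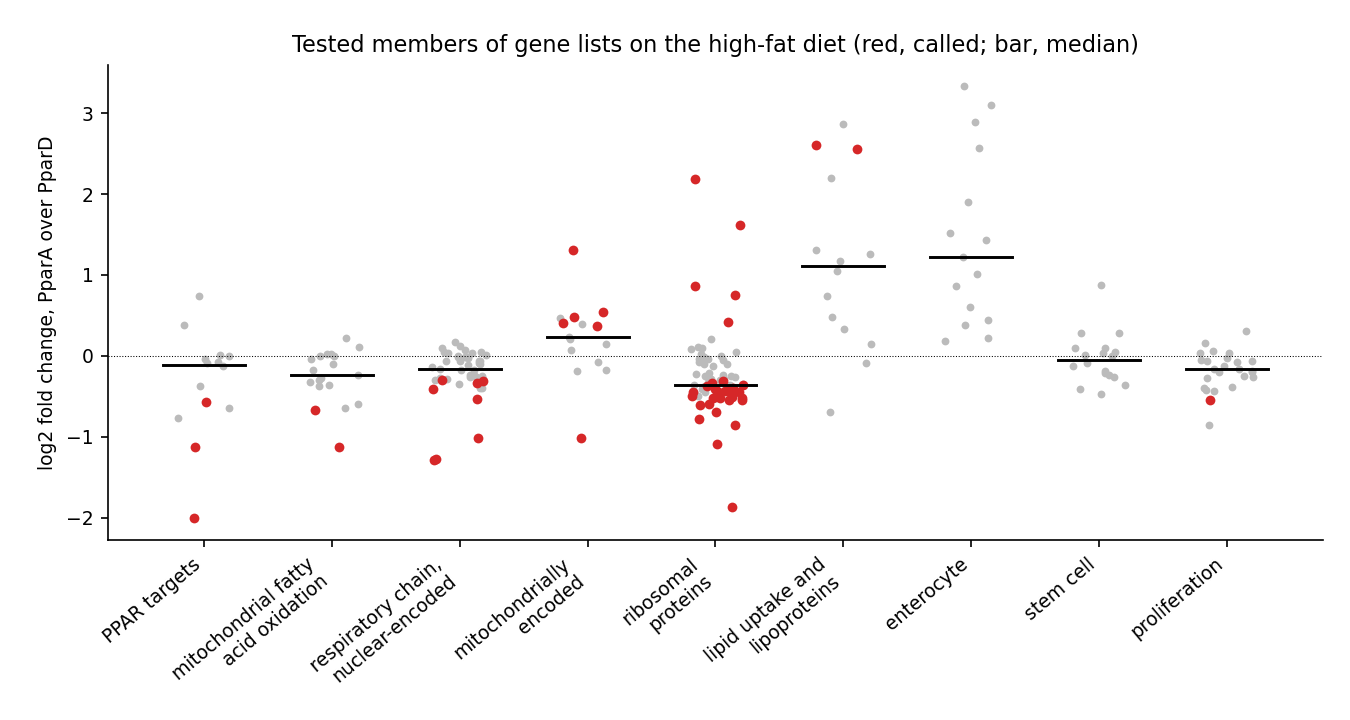
Log2 fold change of PparA over PparD on the high-fat diet for each tested member of 9 gene lists, with called members in red and the median as a bar. The medians run from -0.36 for ribosomal proteins to 1.22 for enterocyte genes, where none of the 15 tested members was called.

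The difference between the genotypes depended on the diet for few genes, among them several of the ribosome. The test of the high-fat difference minus the control difference called 14 of 5872 genes (0.238%), 13 of them with a positive value. Rpl28, a large-subunit protein, was at 4346, 6117, 9561 and 7617 CPM in PparA and at 1374, 1644, 1421 and 1420.4 CPM in PparD on the high-fat diet. On the control diet PparA was the lower group, at 1315 CPM against 2361 CPM. The log2 fold change was 2.18 ± 0.13 on the high-fat diet (adjusted p = 2.2e-12) and -0.85 ± 0.13 on the control diet, and their difference was 3.03 ± 0.19 (adjusted p = 4.4e-12).

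Rps4x, an X-linked small-subunit protein, turned in the same way. It was at 24406, 23789.5, 31496 and 29746 CPM in PparA and at 9121, 10517, 7782 and 8322 CPM in PparD, and its log2 fold change was 1.61 ± 0.16 on the high-fat and -0.94 ± 0.16 on the control diet. Trmt112, an activator of methyltransferases that act on tRNA and rRNA, was at 243, 181, 213 and 203 CPM in PparA and at 75.6, 49.2, 85.6 and 73.4 CPM in PparD. The 7 other groups of the series had means of 67.0 to 74.2 CPM, so PparA on the high-fat diet stood alone (difference between diets 1.68 ± 0.22, adjusted p = 2.0e-05).

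In Rps24, Ppt2 and Ptms PparD on the control diet was the high group instead, joined in Ppt2 by PparDA on that diet at 37.9 CPM. Stk11 changed sign, with a log2 fold change of 1.21 on the high-fat diet, not called, and -1.44 on the control diet. Rps24, of the small subunit, had means of 1543 CPM in PparA and 1788 CPM in PparD on the high-fat diet, and 1482 and 7350 CPM on the control diet. Ppt2, a lysosomal thioesterase, had on the control diet 7.02 CPM in PparA against 51.4 CPM for PparD, and then 7.67 and 9.92 CPM on the high-fat diet. The differences between diets were 2.10 ± 0.22 for Rps24, 2.48 ± 0.52 for Ppt2, 2.98 ± 0.65 for Ptms, which binds histone, and 2.65 ± 0.53 for Stk11, a kinase of energy sensing (adjusted p = 3.3e-07, 0.022, 0.038 and 0.018). PparA and PparD kept 1 place for each diet in every run, so diet and place within the run cannot be told apart here.

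**Figure D4:**
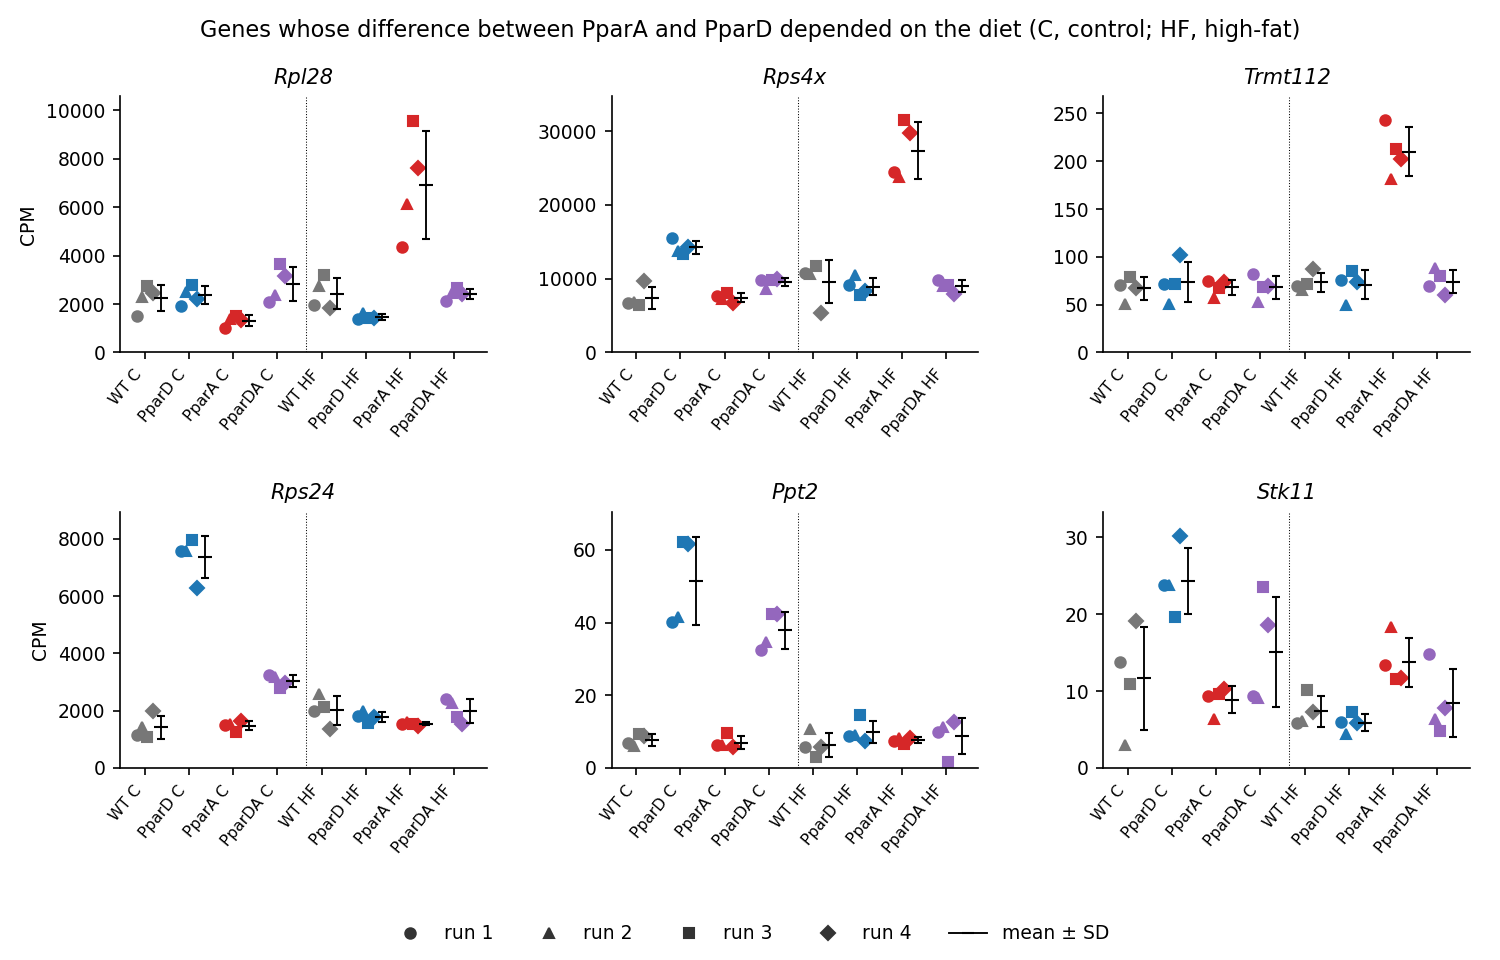
CPM of 6 genes in the 8 groups of the series, with the control diet left and the high-fat diet right of the dotted line, the run as marker shape and black bars for the mean ± SD of 4 libraries. PparA on the high-fat diet stands above all other groups in Rpl28, Rps4x and Trmt112, and PparD on the control diet has the highest mean in Rps24 and Ppt2.

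Genes of absorptive enterocytes and of lipoprotein assembly were high in PparA libraries 14 and 30, those of runs 2 and 4, and not in libraries 6 and 22. All 15 tested enterocyte genes had a positive log2 fold change, with a median of 1.22, and none was called (edgeR; 8 had an unadjusted p under 0.05, and DESeq2 called 1). Without library 6 or 22, 4 members were called, and 7 without a filter on low counts. The median was 0.38 with the groups fitted alone and 0.34 under a stricter filter. The summed level of the list was 999, 2528, 851 and 1917 CPM in PparA and 1195, 1134, 1130 and 889 CPM in PparD, so only runs 2 and 4 separated the groups. Its median was -0.19 in runs 1 and 3 alone, with no call, and 2.16 in runs 2 and 4 alone, with 9 calls. In bulk samples a smaller number of cells of a type and less RNA per cell cannot be told apart.

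Of 14 tested genes of lipid uptake, triglyceride synthesis and lipoprotein assembly 2 were called, both higher (14.3%, against 1.48% of all tested genes called higher), with a median of 1.11. The median was 0.55 without library 14, -0.41 in runs 1 and 3 alone and 2.02 in runs 2 and 4 alone. Apoa1, the main protein of high-density lipoprotein, was at 44.8, 757, 49.5 and 464 CPM in PparA and at 31.1, 64.1, 52.2 and 20.5 CPM in PparD. Apoc3, which slows the clearance of triglyceride-rich particles, was at 23.9, 199.6, 14.8 and 61.5 CPM in PparA and at 8.89, 14.9, 11.6 and 7.34 CPM in PparD. In both genes libraries 14 and 30 were the highest and the others lay in or near the PparD range. The log2 fold changes were 2.60 ± 0.74 and 2.56 ± 0.69 (adjusted p = 0.046 and 0.034). Fabp1, a fatty acid carrier and PPAR target, was at 221, 2124, 600.5 and 1299 CPM in PparA and at 600.4, 582, 644 and 408 CPM in PparD, with a log2 fold change of -0.59 in runs 1 and 3 and 1.77 in runs 2 and 4. It was not called over all runs (0.74 ± 0.57, edgeR adjusted p = 0.59), but was called higher in PparA when genes of low count were not filtered out (0.73, edgeR adjusted p = 7.3e-07). That unfiltered fit gave an SE of 0.12 in place of 0.57, although the PparA libraries ran from 221 to 2124 CPM.

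Rbp2, a retinol carrier of enterocytes, Fabp6, the ileal bile acid carrier, Fcgbp, a mucus protein of goblet cells, Reg3a, an antimicrobial lectin, and Aldh1a3, which makes retinoic acid, were also called higher, with log2 fold changes of 2.59, 3.35, 1.84, 2.74 and 2.497 (adjusted p = 0.04, 0.044, 0.024, 0.044 and 0.026). Library 14 or 30 was the highest of the 8 in each of them, although the log2 fold change of Reg3a was 2.42 in runs 1 and 3 and 2.87 in runs 2 and 4. In all 7 called genes of this kind the call was lost without library 14 (adjusted p = 0.128 to 0.525), library 30 (0.0868 to 0.186), library 4 (0.0687 to 0.123) or library 28 (0.0536 to 0.167), and for 6 of them without library 12 (0.0403 to 0.185 over the 7). Fabp6 stood at 0, 105, 1.65 and 28.3 CPM in PparA and at 0, 2.98, 0 and 7.34 CPM in PparD.

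The summed level of the Paneth list was higher in runs 2 and 4 than in runs 1 and 3 in both groups. It was 9045, 38674, 6877 and 42969.6 CPM in PparA and 6180.03, 13306, 6491 and 12269 CPM in PparD, while WT reached 55379 CPM in run 1. None of 21 tested members was called, with a median of 0.82. The test of whether the PparA to PparD difference changed between the pairs of runs called 0 of them. Outside that list Defa31 and Defa35, α-defensins of a family whose near-identical members may share reads, were called at 1.95 ± 0.55 and 6.49 ± 1.02 (edgeR adjusted p = 0.044 and 0.00021). Defa27, also outside the list and named after its values were seen, was called with 140 counts in PparA and 3 in PparD. Defa35 had 127 counts in PparA and 1 in PparD, a ratio of 139 (95% counting interval 24.5 to 5539). Defa31 was lost without library 4, 12, 14, 20, 28 or 30 (0.0593 to 0.289). Goblet cell genes had 1 call in 11, and none of 7 enteroendocrine and 5 tuft cell genes was called, against 3.42% of all tested genes. At that share lists this short would hold few calls or none. The part of these cell types in the differences above was not tested.

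The test of runs 2 and 4 against runs 1 and 3 called 42 genes (0.715%), 32 of them with a larger value in runs 2 and 4. Rep15, a partner of the vesicle GTPase RAB15, was at 68.7, 965, 74.2 and 1378 CPM in PparA and at 88.9, 73.1, 107 and 82.2 CPM in PparD. Fgf1, a growth factor that acts on metabolism, was at 4.48, 64.9, 4.95 and 105 CPM in PparA and at 7.41, 2.98, 4.35 and 8.80 CPM in PparD. Both were high in libraries 14 and 30 only. Over all runs their log2 fold changes were 2.48 ± 0.67 (adjusted p = 0.035, lost without library 4, 12, 14, 28 or 30) and 2.73 ± 0.79 (adjusted p = 0.052). The differences between the pairs of runs were 4.39 ± 0.56 and 4.11 ± 0.76 (adjusted p = 0.00022 and 0.012). On the control diet PparA showed the same split, with Rep15 at 87.1, 1117, 70.6 and 459.996 CPM, whereas all 4 PparDA libraries on the high-fat diet were high, at 899.5 to 1227 CPM for Rep15 and 111 to 192 CPM for Fgf1. Ifitm3, an interferon-induced membrane protein, had a difference between the pairs of -1.02 ± 0.24 (adjusted p = 0.048). Runs 2 and 4 are also the runs with Y-linked transcripts, so the run and the sex of the cells cannot be told apart.

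**Figure D5:**
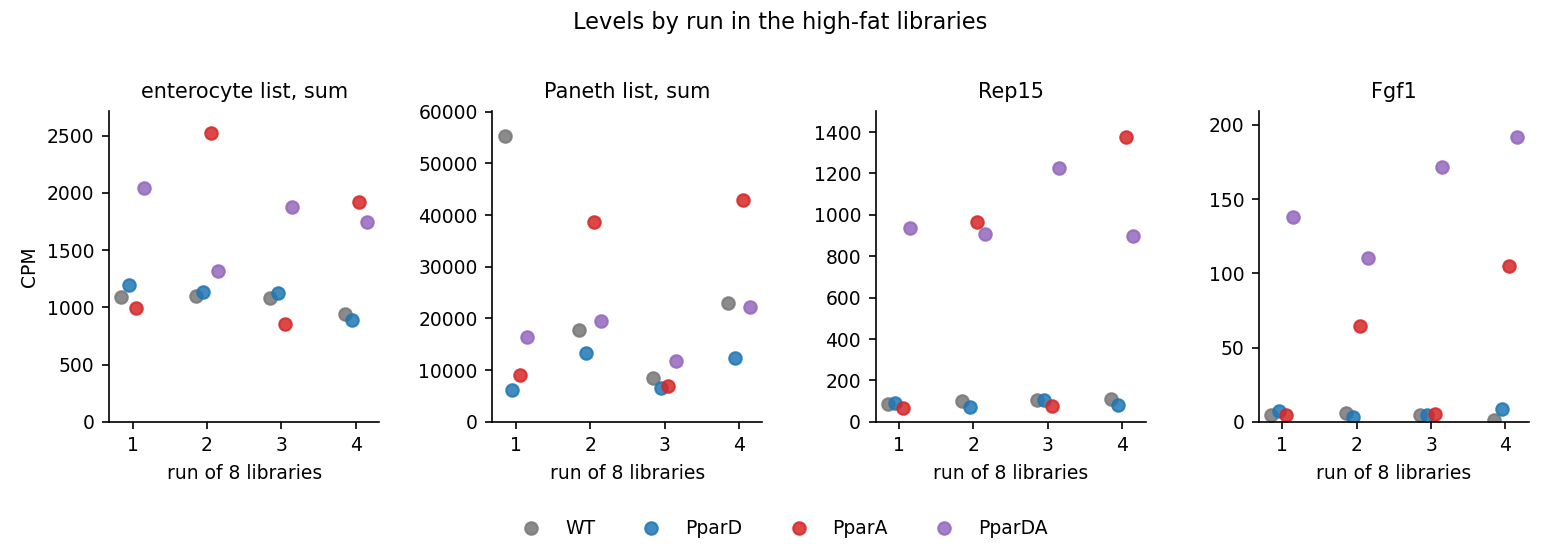
Summed CPM of the enterocyte and Paneth lists and CPM of Rep15 and Fgf1 in each high-fat library by run, coloured by genotype. PparA stands above PparD in runs 2 and 4 in all 4 panels, while PparDA is high in every run for Rep15 and Fgf1.

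Other genes were higher in PparA in all 4 runs. Deptor, an inhibitor of the growth kinase mTOR, was at 97.0, 206, 150.1 and 224 CPM in PparA and at 43.0, 56.7, 52.2 and 48.4 CPM in PparD. The groups were far apart (log2 fold change 1.74 ± 0.24, adjusted p = 2.0e-05), and on the control diet the value was 0.70 ± 0.25 (adjusted p = 0.3). Deptor lies on chromosome 15, as Ppara does, and is 1 of the 8 called genes there that are more than 10 Mb from Ppara. Hsd17b13, a lipid droplet enzyme, was at 34.3, 63.2, 23.1 and 36.6 CPM in PparA and at 8.89, 10.44, 8.70 and 11.7 CPM in PparD (1.95 ± 0.40, adjusted p = 0.005; control diet 1.72 ± 0.36, adjusted p = 0.012). Il18, an epithelial cytokine, was at 11.9, 26.6, 13.2 and 29.9 CPM in PparA and at 8.89, 8.95, 2.90 and 2.93 CPM in PparD (1.75 ± 0.39, adjusted p = 0.0092), without overlap in either gene. The Il18 call was lost without library 28 or 30 (0.0544 to 0.0709). Tmem116, a membrane protein, Dynlt1b, a dynein light chain, and Hddc3, a hydrolase, were called with overlapping ranges at 3.24, 2.07 and 2.28. Dynlt1b was lost without library 4 (adjusted p = 0.0797) and Hddc3 without 4, 6, 12, 20, 22, 28 or 30 (0.0629 to 0.147).

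The largest falls included Txn1, Coq6, Noc2l and Lsm4. Txn1, the redox protein thioredoxin, was at 1612, 1402, 1123 and 956 CPM in PparA and at 5289, 4712, 3215 and 2627 CPM in PparD. Coq6, of ubiquinone synthesis, was at 38.8, 49.9, 46.2 and 23.3 CPM in PparA and at 173, 173, 129 and 116 CPM in PparD. Noc2l, which acts in ribosome assembly and inhibits histone acetyltransferases, was at 19.4, 19.96, 13.2 and 11.6 CPM in PparA and at 87.5, 92.5, 56.6 and 52.8 CPM in PparD. None of the 3 overlapped, with log2 fold changes of -1.61 ± 0.29, -1.91 ± 0.33 and -2.16 ± 0.40 (adjusted p = 0.0014, 0.00093 and 0.0015). The WT mean lay between them in each, at 2783 ± 1651 CPM for Txn1.

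Lsm4, of the RNA-decay and spliceosomal Lsm rings, differed by -1.80 ± 0.35, Ppic, a prolyl isomerase, by -1.45 ± 0.29, Pxk, a phox-domain protein, by -1.93 ± 0.48, Exosc6, of the RNA exosome, by -1.95 ± 0.48 and Haus4, of the augmin complex of the spindle, by -1.60 ± 0.43 (adjusted p = 0.0029, 0.0032, 0.018, 0.019 and 0.032). None of them overlapped. Pxk and Exosc6 were lost without library 4, 14 or 30 (0.0699 to 0.127), and Haus4 without 4, 6, 12, 14, 28 or 30 (0.0531 to 0.143). Cyp2c65, an intestinal cytochrome P450, was at 34.3, 31.6, 11.5 and 38.2 CPM in PparA and at 59.3, 82.0, 56.6 and 83.6 CPM in PparD, a log2 fold change of -1.28 ± 0.26 (adjusted p = 0.0043).

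Stem cell genes showed no call, and proliferation genes showed 1. None of 18 tested stem cell markers was called, with a median of -0.05. Lgr5, the receptor that defines these cells, was at 37.3, 36.6, 59.4 and 56.5 CPM in PparA and at 35.6, 53.7, 29.0 and 58.7 CPM in PparD, which overlap widely (log2 fold change 0.10 ± 0.23, adjusted p = 0.89). Olfm4, a secreted crypt glycoprotein, differed by -0.26 ± 0.10 (adjusted p = 0.18) and Prom1, a membrane marker of crypt cells, by -0.47 ± 0.15 (adjusted p = 0.075; control diet -0.58, adjusted p = 0.045). Of 25 proliferation genes 1 was called (4%, against 3.42% of all tested genes). It was Hmgb2, a chromatin protein of dividing cells, at -0.55 ± 0.12 (adjusted p = 0.0072). Hmgb2 was no longer called when library 14 or 30 was left out (0.0525 to 0.053). A negative value was found for 20 of the 25. The median of the proliferation list was -0.16, against 0.01 for all tested genes. At an unadjusted p under 0.05, 5 of the 25 were lower, against 497 of all 5872 tested genes. The list's median was -0.07 without library 30 and -0.09 without library 14. It was 0.01 in runs 1 and 3 alone and -0.37 in runs 2 and 4 alone.

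Set beside WT on the same diet, PparA had 93 called genes (1.58%; 54 higher, 0.92%, and 39 lower, 0.664%) and PparD had 10 (0.17%), all lower than WT. Both comparisons use the same 4 WT libraries. For Slc25a20 the values were -0.18 ± 0.28 for PparA and 0.95 ± 0.26 for PparD, and for Angptl4 -0.09 ± 0.65 and 1.92 ± 0.50, none called. For Txn1 they were -1.02 ± 0.29 and 0.59 ± 0.29 and for Rps10 -0.28 ± 0.14 and 0.50 ± 0.14, again not called. For Cyb5r3 they were 1.84 ± 0.14 (adjusted p = 6.8e-10) and -0.09 ± 0.15.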

How the data were processed

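RNA of GFP-high mouse intestinal stem cells was measured by 3' digital gene expression in 32 libraries, of which 8 are compared here. The authors deposited expected counts per gene, already whole numbers, and a table of log2(CPM + 1) values, used as a check (88.8 to 90.8% of its values were whole counts within 0.02). Per the submitters' processing notes, Salmon 1.1.0, edgeR 3.30.2, R 4.0.2 and build mm10 are named, with no account of what each did. Whether molecular identifiers were counted is not given in the sources used here, and intervals cover counting error only. Library totals were 612672 to 724155.

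Identifiers were matched to GENCODE M21 (GRCm38), 54166 of 54418. Column names give group and library number, and the run was read from the number. Genes passing filterByExpr (minimum count 10, total 15; 5872 genes) were fitted over all 32 libraries with group and run (edgeR 4.0.16, TMM, quasi-likelihood, R 4.3.3), with two-sided tests, Benjamini-Hochberg adjustment and an SE from the F statistic. CPM uses TMM factors. Named genes follow a rule: fixed key genes, the 12 most raised and the 12 most lowered called genes of at least 10 CPM with 1 direction in all 4 runs, up to 3 called members per list, the 5 smallest p, and called genes within 10 Mb of Ppara or Ppard. Predicted genes and pseudogenes were kept out of the largest changes, and some genes that the rule allows are not reported here. Members and lists were chosen with earlier results of these data known. Alternatives were other filters, normalizations, tests (DESeq2 1.42.0), run pairs and libraries left out. The fits were tested on simulated data.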

Additional observations from a re-analysis of the deposited data

Results flagged for a closer look

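In 13 of 188 groups of 4 libraries checked, 1 library stood far from the other 3 by Dixon's criterion, which chance alone passes in about 1 in 20 groups. In PparA these were library 6 for Rpl3-ps1 (361 CPM) and for the summed peroxisomal oxidation genes (855 CPM), and library 22 for Plin2 (242 CPM) and the summed ribosomal protein genes (212945 CPM). In PparD they were library 4 for Rpl31-ps8 (169 CPM), Hadha (205 CPM) and the summed proliferation genes (5080.1 CPM), and library 12 for Rpl3-ps1 and Defa35 (1.49 CPM each, a single count). Library 28 of PparD stood apart in the summed goblet (5463 CPM), tuft (437 CPM), distal (1416 CPM) and lymphocyte (10.3 CPM) genes.

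The PparA to PparD difference itself differed between diets by edgeR's test of the difference. The high-fat minus control values, on the log2 scale, were 3.03 for Rpl28, 2.56 for Rps4x, 2.10 for Rps24, 1.68 for Trmt112, 2.65 for Stk11, 2.48 for Ppt2, 2.98 for Ptms and -7.87 for Rpl31-ps8, which had counts only in run 1. Between runs 2 and 4 and runs 1 and 3 the difference changed by 4.39 for Rep15, 4.11 for Fgf1 and -1.02 for Ifitm3.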

How the results depend on the processing

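The labels do not say what a library number marks. Deviations from the group means, in PparA and PparD libraries of the same run, had correlations of 0.225, 0.0872, 0.0464 and 0.0549 across genes. The highest correlation of each PparA library with a PparD library of another run was -0.0616, 0.0227, 0.0477 and 0.0705, above the same-run value in runs 3 and 4. Each group has 1 library per run, so these values cannot show whether the numbers pair samples beyond the run. Without the replicate block for the run, 92 genes were called on the high-fat diet in place of 201, and 9 in place of 14 for the difference between diets. With the compared groups fitted alone the counts were 107 on the high-fat diet, 18 in place of 58 on the control diet, and 9 for the diets' difference. Without a filter they were 424, 265 and 78, and 144 in place of 42 for the pairs of runs, with 58.5% of the high-fat calls higher in PparA in place of 43.3%. A stricter filter gave 33 on the control diet and 9 for the diets' difference. Runs 1 and 3 alone gave 65 and 32 calls on the high-fat and control diets, and runs 2 and 4 alone gave 131 on the control diet and 6 for the difference; there 70.6% of the 194 high-fat calls were higher in PparA. Leaving out 1 library gave 80 to 237 calls on the high-fat diet, with 89, 132 and 97 without PparD libraries 4 and 12 and PparA library 14, and 35 to 54 on the control diet, with 38 without PparD library 3 or 27 and 36 without PparA library 13, and 7 to 15 for the difference. DESeq2 called 199 genes, 146 of them shared.

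Of 51 called named genes, 13 were called under every alternative. Signs turned for Rep15 (-0.46), Fgf1 (-0.31), Fabp1 (-0.59) and Plin2 (0.071) in runs 1 and 3 alone, for Ppt2 (0.021) and Lgr5 (-0.29) in runs 2 and 4 alone, for Lgr5 without library 20 (-0.076) or 22 (-0.049), and for Ptms without library 30 (-0.0046). The cause was not tested. Depth, at most 704387 counts in the 8 libraries, limits tests of genes such as Ppara, Ppard and Pdk4.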
